A study of Rattus norvegicus with 22 samples.

Results

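Kidney RNA of polycystic rats was read for 39 genes that encode the transporters and uptake receptors of the proximal tubule. The members were a fixed list of gene names matched to the rat gene identifiers of the deposited files, and the rule itself uses no measured value, although the list was drawn up with earlier results of these data known. All 39 were among the 17334 genes of the files, 38 under the listed symbol and Slc6a20 under its current symbol Slc6a20a. All 39 also passed the filter on low counts that left 12867 genes for testing.

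The samples were left kidneys of 22 male PKD/Mhm (Cy/+) rats aged 8 months. Every rat, the untreated ones included, carried 1 copy of the Cy allele, a missense change in Anks6 that causes slowly progressive cystic kidney disease, and rats without it were not analysed here. The 6 untreated rats were compared with 6 rats given human adipose-derived stromal cells (ASC) intraperitoneally (i.p. ASC), 6 given the same cells intravenously (i.v. ASC) and 4 given the medium conditioned by these cells (ASC-derived CM). Injections were given once a month for 6 months. The sources name both routes for the CM, so its route is not stated here. Each rat is a separate animal with 1 library, and 3 of the comparisons share the same untreated rats. Total estimated counts ran from 12195682 to 14734772 per rat, and the lowest estimated count of a member in any rat was 3. Rats are numbered within their group.

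The proximal tubule follows the glomerulus and takes back most of the filtered glucose, phosphate, amino acids, bicarbonate, sulfate and small proteins. Brush border carriers, many of them coupled to sodium, bring solutes into the cell, and basolateral carriers pass them to the blood. Organic anion and cation carriers work in the other direction and secrete drugs and metabolites. The segments of the tubule differ: Slc5a2 (SGLT2) is the glucose carrier of the early part and Slc5a1 (SGLT1) that of the late straight part. In polycystic kidneys cysts replace part of this epithelium. The RNA came from whole tissue, so fewer proximal tubule cells and less RNA per cell cannot be told apart in any value below.

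The labelled tissue was checked against marker genes. The defining genes of the proximal tubule were detected in every rat, together with those of podocytes, thick ascending limb, distal tubule, collecting duct, endothelium, fibroblasts and leukocytes. Estimated counts of 0 were limited to Pvalb, a distal tubule marker at 0 in 17 rats, and to the urothelial genes Upk2, Upk3a and Krt5, at 0 in 11, 3 and 1 rats. The summed level of the 4 urothelial genes had a median of 28.5 CPM (counts scaled to a common library total) in i.v. ASC rats and reached 245 CPM in i.v. ASC rat 3. It was at most 7.08 CPM in every untreated, i.p. ASC and ASC-derived CM rat. The part of urothelial tissue in the values below was not tested.

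Levels between genes were compared in TPM, a share of transcripts that corrects for their length. The 39 genes spanned a mean of 3.95 to 949 TPM over the 22 rats, and 3 of them held 49.4% of their summed mean of 4502 TPM. Slc3a1, the heavy subunit (rBAT) of the cystine carrier, was the most abundant at a mean of 949 TPM, from 142 to 2494. Slc34a1, the sodium-phosphate cotransporter NaPi-IIa, had a mean of 782 TPM, from 227 to 1405. Aqp1, the water channel, had a mean of 493 TPM, from 193 to 1010. The ranges of these 3 genes overlapped, so their order held for the means and not in every rat.

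At the other end were Slc5a8, Slc22a7 and Abcc2. Slc5a8, a sodium-coupled carrier of lactate and short fatty acids, had a mean of 3.95 TPM, from 0.405 to 10.9. Slc22a7, the organic anion carrier OAT2, had a mean of 4.18 TPM, from 0.225 to 14.3. Abcc2, an export pump of conjugates in the brush border, had a mean of 4.54 TPM, from 2.50 to 7.48. The ranges of these 3 genes overlapped, also with that of Slco4c1, a carrier of the organic anion transporting polypeptide family, at a mean of 4.82 TPM.

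Levels also differed inside each role. Among phosphate carriers, Slc34a1 stood far above Slc34a3 (NaPi-IIc), which had a mean of 18.8 TPM, and the ranges of the pair did not overlap (227 to 1405 against 3.05 to 59.2 TPM). Glucose carriers were led by Slc2a2 (GLUT2), the basolateral exit route, at 76.2 TPM and Slc5a2 at 61.3 TPM, with Slc5a1 at 14.2 TPM. The neutral amino acid carriers of the SLC6 family ran from Slc6a18 at 173 TPM to Slc6a19 (B0AT1) at 6.86 TPM. Of the endocytic receptors, Lrp2 (megalin) had 86.7 TPM, Amn (amnionless), which anchors cubilin, 64.9 TPM and Cubn (cubilin) 27 TPM.

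**Figure D1:**
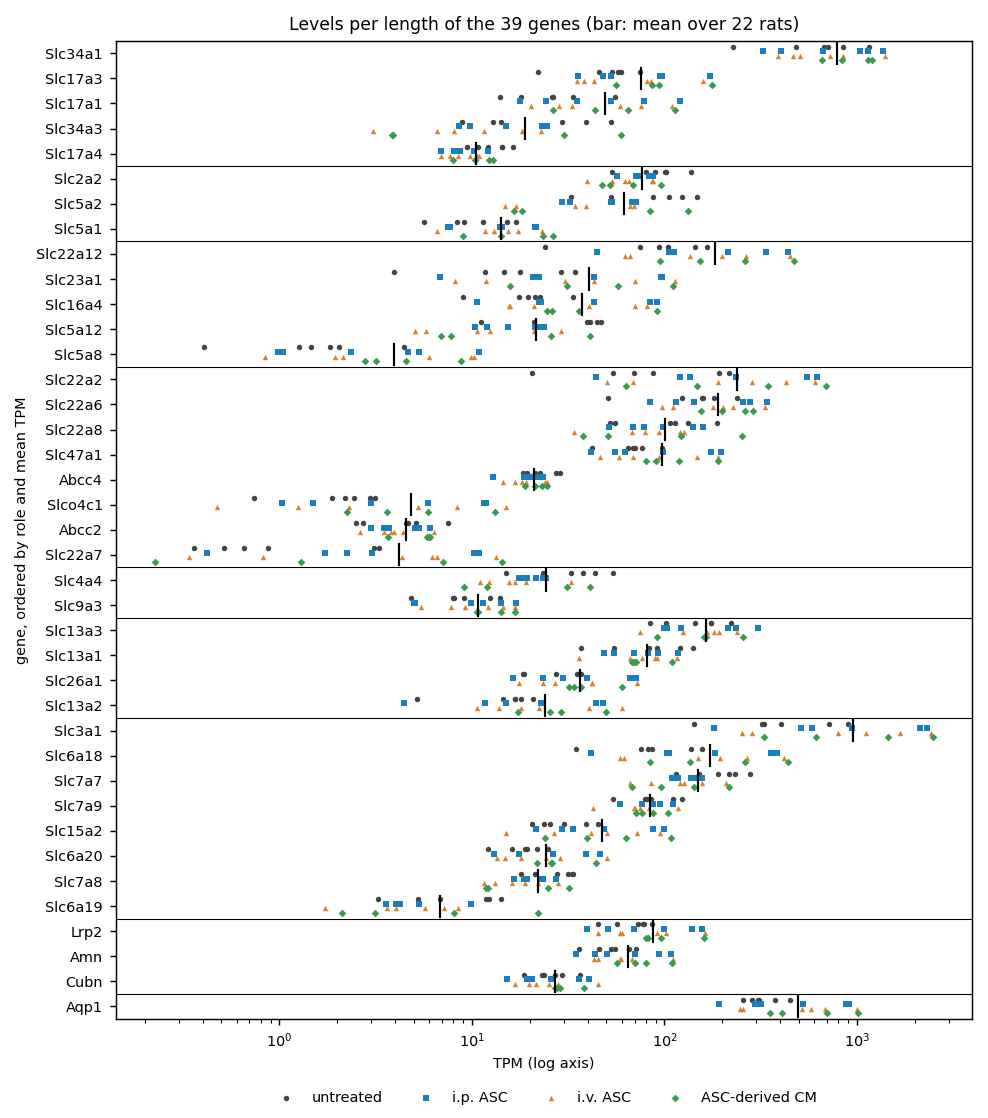
TPM (log axis) of each of the 39 genes in each of 22 rats, grouped by role with horizontal lines between roles. Points are rats, coloured by group, and the vertical bar is the mean over 22 rats, which runs from 3.95 TPM for Slc5a8 to 949 TPM for Slc3a1.

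The rats differed more in most of these genes than in most others, apart from the differences between groups. The spread between rats of a group, as the standard deviation (SD) of log2 CPM after removing the group means, had a median of 0.77 over the 39 genes against 0.23 over all 12867 genes tested. Of the 39 genes, 37 lay above that overall median, and 27 lay above the 90th percentile of all genes (0.60). The ratio of the highest to the lowest rat in CPM had a median of 6.93 over the members, from 1.74 for Abcc4, an export pump, to 77.2 for Slc22a7.

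The 3 most variable members were Slc22a7, Slc22a2 and Slc23a1. In CPM, Slc22a7 had a lowest, median and highest value of 0.393, 0.793 and 3.69 in untreated rats, 0.452, 3.02 and 13.3 in i.p. ASC rats and 0.414, 6.31 and 15.7 in i.v. ASC rats. Its 4 ASC-derived CM rats had 18.3, 8.03, 1.36 and 0.237 CPM, so that the highest and the lowest of all 22 rats were both in this group. Slc22a2, the basolateral cation carrier OCT2, had 30.2, 111 and 340 CPM in untreated, 66.5, 290 and 1062 in i.p. ASC and 86.1, 371 and 993 in i.v. ASC rats. Its ASC-derived CM rats had 1190, 552, 209 and 93.1 CPM, the first of them the highest of all 22 rats. Slc23a1, the ascorbate carrier SVCT1, had 6.22, 24.8 and 58.8 CPM in untreated, 11.2, 53.3 and 177 in i.p. ASC and 15.1, 61.6 and 203 in i.v. ASC rats, and 205, 98.8, 47 and 25.2 CPM in the ASC-derived CM rats. The groups of all 3 genes overlapped.

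The same rats were high or low in many members at once. The 39 genes took between 0.392% of all counts in i.p. ASC rat 5 and 1.74% in i.v. ASC rat 1, and summed to between 1855 and 8870 TPM. The mean log2 CPM of the members was highest in i.v. ASC rat 1 (7.22), i.p. ASC rat 1 (7.20), ASC-derived CM rat 1 (7.01), i.p. ASC rat 3 (6.98) and i.v. ASC rat 3 (6.70). It was lowest in untreated rat 1 (5.28), i.p. ASC rat 5 (5.39) and i.v. ASC rat 6 (5.72). Group means were 6.03 ± 0.40 (SD, n = 6) in untreated, 6.35 ± 0.69 (n = 6) in i.p. ASC, 6.28 ± 0.60 (n = 6) in i.v. ASC and 6.51 ± 0.34 (n = 4) in ASC-derived CM rats. The groups overlapped.

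The labels give each animal a number, from 1 to 24, and do not say what it stands for. The 5 highest rats carried the numbers 3, 5, 2, 7 and 9, and the lowest rat carried number 1. Numbers 6 and 8 ranked 17 and 18 of the 22 rats. The untreated rats carried 1, 12, 18, 22, 23 and 24, so number and treatment cannot be fully told apart. With the number as a covariate, chosen after seeing the data, the medians given below were 0.21, 0.085 and 0.43 for i.p. ASC, i.v. ASC and ASC-derived CM against untreated.

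**Figure D2:**
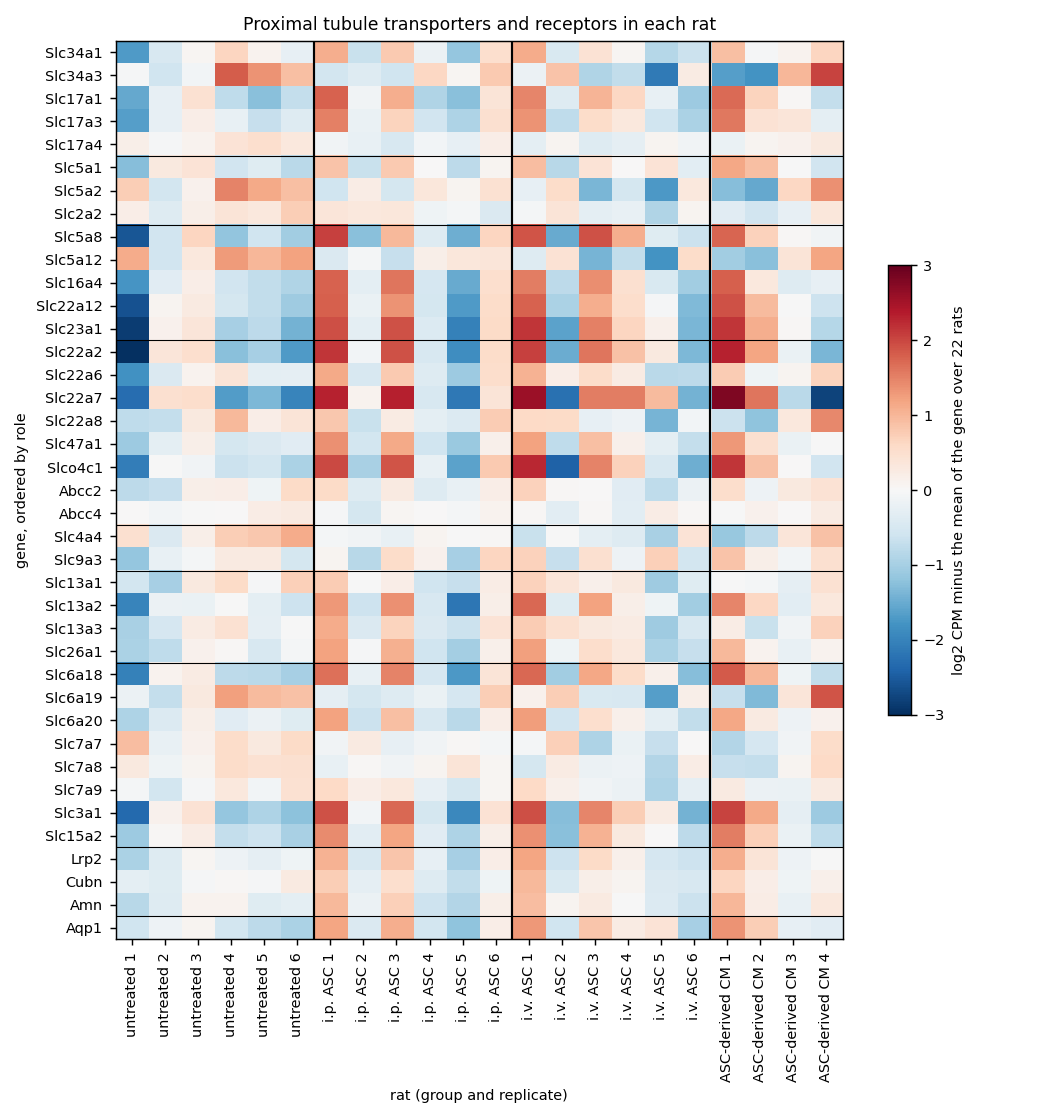
Log2 CPM of each of the 39 genes (rows, ordered by role) in each of 22 rats (columns, by group), minus the mean of the gene over all rats. Red is above and blue below that mean; the columns of i.p. ASC rat 1, i.v. ASC rat 1 and ASC-derived CM rat 1 are red in most rows, while Slc5a2, Slc34a3, Slc5a12 and Slc4a4 are not.

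The members did not move as 1 block, and the glucose carriers stood at opposite ends. Slc5a1 and Slc5a2 were a pair listed for a test of its own, with earlier results of these data known. Their levels were inversely related over the 22 rats (Pearson r = -0.74, permutation p = 0.00013, adjusted 0.00026; Spearman rho = -0.74, p = 0.00014, adjusted 0.000467). The relation held after centring on the group means (r = -0.72, permutation p = 0.00111, adjusted 0.00222) and without the 2 rats farthest from the median of Slc5a1 (r = -0.71, p = 0.0006). In CPM, Slc5a1 had 9.89, 17.6 and 32.5 as lowest, median and highest value in untreated, 14.1, 25 and 44.2 in i.p. ASC and 13.7, 28.4 and 46.6 in i.v. ASC rats. The ASC-derived CM rats had 54.5, 45.6, 24 and 16.3 CPM of Slc5a1 and, in the same order, 33.4, 28.3, 126 and 210 CPM of Slc5a2. Slc5a2 had 55.8, 145 and 229 CPM in untreated, 53.5, 90.3 and 113 in i.p. ASC and 24.5, 62.6 and 120 in i.v. ASC rats.

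The other members were then ordered by their correlation with these 2 genes over the 22 rats, on log2 CPM centred on the group means. The threshold of 0.6 for this description was chosen after the values were seen, so it carries no test. By it, 21 members besides Slc5a1 varied with Slc5a1, 8 besides Slc5a2 varied with Slc5a2, none varied with both, and 8 varied with neither. Just inside the threshold lay Slc34a1 and Cubn, at r = 0.61 and 0.63 with Slc5a1, and Slc2a2, at 0.63 with Slc5a2. Just outside lay Slc26a1, the basolateral sulfate carrier, at 0.599 with Slc5a1, Slc22a6 at 0.55 with Slc5a1 and Slc17a4 at 0.55 with Slc5a2.

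The genes that varied with Slc5a1 spanned most roles. They were Slc34a1, Slc17a1 and Slc17a3, the last 2 being anion and urate carriers named for phosphate, and Slc5a8, Slc16a4, Slc22a12 (the urate carrier URAT1) and Slc23a1. The secretory carriers Slc22a2, Slc22a7, Slc47a1 (the cation exporter MATE1) and Slco4c1 were among them. So were Slc9a3 (the sodium-proton exchanger NHE3), Slc13a2 (the citrate carrier NaDC1), Slc6a18, Slc6a20, Slc3a1, Slc15a2 (the peptide carrier PEPT2), Lrp2, Cubn, Amn and Aqp1. The strongest were Slc22a2 at r = 0.94 and Slc3a1, Slc22a7, Slc23a1 and Slc15a2 at 0.93.

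The genes that varied with Slc5a2 were Slc5a12, a lactate carrier of low affinity (r = 0.97), Slc34a3 (0.96), Slc7a8 (0.89), Slc6a19 (0.89), Slc4a4 (0.86), Slc7a7 (0.84), Slc22a8 (0.69) and Slc2a2 (0.63). Slc7a7 and Slc7a8 are the basolateral amino acid carriers y+LAT1 and LAT2, Slc4a4 is the basolateral bicarbonate carrier NBCe1, and Slc22a8 is the organic anion carrier OAT3. The members that varied with neither were Slc17a4, Slc22a6 (OAT1), Abcc2, Abcc4, Slc7a9, the sulfate carriers Slc13a1 and Slc26a1 and the dicarboxylate carrier Slc13a3. The median r was 0.91 over pairs that varied with Slc5a1, 0.80 over pairs that varied with Slc5a2 and -0.41 over pairs across them, values that the choice of members fixes in part.

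**Figure D3:**
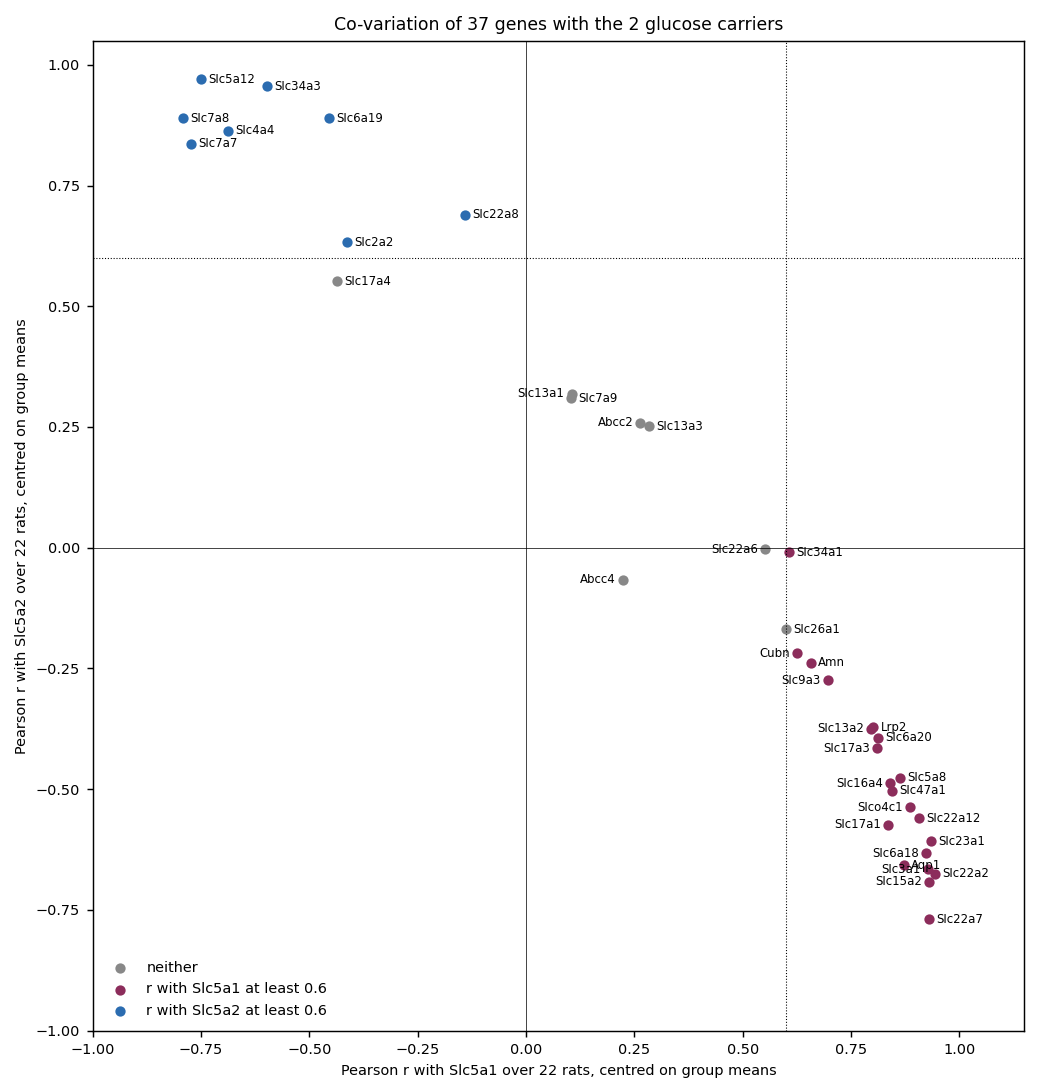
Pearson r of 37 genes with Slc5a1 (x axis) and with Slc5a2 (y axis) over 22 rats, on log2 CPM centred on the group means. Dotted lines mark 0.6, and colours give the 21 genes past it with Slc5a1, the 8 past it with Slc5a2 and the 8 past neither; points run from Slc5a12 at the upper left to Slc22a7 at the lower right.

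Genes of other cell types varied with these 2 sets of members. Correlations below are descriptions over the 22 rats, centred on the group means, with no test, and all points share library and total. The mean of the Slc5a2 set varied with the podocyte list (r = 0.81, rho = 0.80) with endothelium (0.70, rho = 0.73) and with distal convoluted tubule (0.69, rho = 0.70), and against thick ascending limb (-0.77, rho = -0.77) and principal cells (-0.58, rho = -0.62). The mean of the Slc5a1 set varied with the thick ascending limb (r = 0.70, rho = 0.69) and against fibroblasts (-0.82, rho = -0.78), endothelium (-0.75, rho = -0.77), leukocytes (-0.70, rho = -0.66), distal convoluted tubule (-0.64, rho = -0.65) and podocytes (-0.62, rho = -0.63). Without the 2 rats farthest from the median of each list, the podocyte value was 0.75 with the Slc5a2 set and -0.55 with the Slc5a1 set, and the thick ascending limb values were -0.71 and 0.72. The mean of the distal convoluted tubule list rested on 2 genes, Slc12a3 and Calb1. Single genes were uneven within a list. Scnn1g, the weakest of the principal cell genes, had r = -0.05 with the Slc5a2 set. Kcnj1, the weakest of the thick ascending limb genes, had r = 0.07 with the Slc5a1 set. The 4 podocyte genes summed to 337 to 700 CPM in untreated, 270 to 572 in i.p. ASC, 137 to 569 in i.v. ASC and 131 to 610 in ASC-derived CM rats. The part that the region of the kidney in each sample had in these relations was not tested.

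The listed pairs of genes did not always vary together. Some encode partner proteins, and others encode separate carriers of like solutes. The list of 10 pairs was tested over the 22 rats with 100000 permutations each and adjusted over the 10. Lrp2 and Cubn, the receptors that take up filtered protein, had r = 0.93 (permutation p = 1e-05, the smallest the permutations can give, adjusted 5e-05; rho = 0.91, p = 1e-05). Cubn and Amn had r = 0.88 (permutation p = 1e-05, adjusted 5e-05; rho = 0.83, p = 1e-05). These tests ask whether a pair varied together at all, not whether it did so more than other pairs. Centred on the group means, the 2 pairs had r = 0.95 and 0.90. The median was 0.91 over pairs of members that varied with Slc5a1, and 0.54 over all 741 pairs of members. Over the 22 rats the endocytic genes varied together. Among untreated rats, Lrp2 and Amn were lowest in rat 1 and highest in rat 3, while Cubn was lowest in rat 2 and highest in rat 6.

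In CPM, Lrp2 had 524, 882 and 1055 as lowest, median and highest value in untreated, 513, 1009 and 2102 in i.p. ASC and 658, 921 and 2309 in i.v. ASC rats, and 2165, 1320, 915 and 1016 in the ASC-derived CM rats. Cubn had 185, 233 and 287 CPM in untreated, 142, 209 and 396 in i.p. ASC and 172, 214 and 467 in i.v. ASC rats, and 373, 272, 218 and 264 in the ASC-derived CM rats. Amn had 42.6, 59.8 and 81.1 CPM in untreated, 41.2, 75.4 and 148 in i.p. ASC and 48.3, 76.8 and 143 in i.v. ASC rats, and 151, 87.3, 64.2 and 93.1 in the ASC-derived CM rats. The highest rat was rat 1 in each of the treated groups for all 3 genes, and all groups overlapped.

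The heavy subunit Slc3a2 (4F2hc) varied with both of its light subunits. Slc7a7 and Slc3a2 had r = 0.78 (permutation p = 6e-05, adjusted 0.0002; rho = 0.73, p = 0.00027) and Slc7a8 and Slc3a2 had r = 0.74 (permutation p = 0.0001, adjusted 0.00025; rho = 0.71, p = 0.00039). Both light subunits belong to the Slc5a2 set, and Slc3a2 had r = 0.66 with the mean of that set, centred on the group means. In CPM, Slc7a7 had 177, 279 and 392 as lowest, median and highest value in untreated, 174, 196 and 251 in i.p. ASC and 109, 191 and 342 in i.v. ASC rats, and 112, 147, 193 and 306 in the ASC-derived CM rats. Slc7a8 had 61.2, 87 and 97.8 CPM in untreated, 57.1, 69.4 and 87.1 in i.p. ASC and 36.2, 59.4 and 79.3 in i.v. ASC rats, and 41, 40.8, 70.6 and 101 in the ASC-derived CM rats. Untreated medians stood above the other medians for both genes, with overlapping ranges.

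The subunits of the cystine carrier did not pass the test as a pair. Slc3a1 and its light subunit Slc7a9 had r = 0.28 (permutation p = 0.203, adjusted 0.259; rho = 0.27, p = 0.220). Slc3a1 ran from 223 to 4569 CPM, with medians of 547, 1272 and 1586 in untreated, i.p. ASC and i.v. ASC rats and 4569, 2460, 924 and 522 in the ASC-derived CM rats. Slc7a9 ran only from 52.3 to 150 CPM, with medians of 96.1, 109 and 90.3, and had 119, 87.1, 86.2 and 119 CPM in the ASC-derived CM rats. The ratio of the highest to the lowest rat was thus 20.5 for Slc3a1 and 2.87 for Slc7a9.

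The organic anion carriers Slc22a6 and Slc22a8, which share the uptake of anions from the blood, had r = 0.60 (permutation p = 0.00318, adjusted 0.0053; rho = 0.65, p = 0.00145). Slc22a6 had 69.5, 202 and 320 CPM as lowest, median and highest value in untreated, 117, 271 and 540 in i.p. ASC and 141, 286 and 507 in i.v. ASC rats, and 419, 226, 261 and 390 in the ASC-derived CM rats. Slc22a8 had 81.9, 165 and 274 CPM in untreated, 87.5, 139 and 244 in i.p. ASC and 53, 129 and 211 in i.v. ASC rats, and 89.1, 60.8, 173 and 376 in the ASC-derived CM rats. These 2 genes are close in sequence, and how the estimated counts split reads between them is not known. Both were lowest among untreated rats in untreated rat 1.

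The other pairs did not pass. Slc34a1 and Slc34a3 had r = 0.09 (permutation p = 0.704, adjusted 0.704; rho = 0.05, p = 0.808), and Slc6a19 and its trafficking partner Cltrn (collectrin) had r = -0.14 (permutation p = 0.526, adjusted 0.584; rho = -0.18, p = 0.415). Slc5a2 and Pdzk1ip1 (MAP17), the protein needed for its activity, had r = -0.28 (permutation p = 0.207, adjusted 0.259; rho = -0.29, p = 0.194). Without the 2 rats farthest from the median of Slc5a2, this last r was -0.55 (permutation p = 0.0126, adjusted 0.018), so the call rests on which rats are held.

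The values behind these pairs were as uneven as the rest. In CPM, Slc34a1 had 387, 1189 and 1971 as lowest, median and highest value in untreated, 569, 1450 and 2691 in i.p. ASC and 698, 1121 and 2717 in i.v. ASC rats, and 2377, 1227, 1369 and 1987 in the ASC-derived CM rats. Slc34a3 had 13.5, 29.1 and 72.5 CPM in untreated, 13.5, 18.4 and 34.9 in i.p. ASC and 4.53, 15 and 36.9 in i.v. ASC rats, and 6.37, 5.78, 40.5 and 83 in the ASC-derived CM rats. Slc6a19 had 6.10, 15.6 and 24 CPM in untreated, 7.01, 8.02 and 16.9 in i.p. ASC and 3.10, 9.14 and 16.8 in i.v. ASC rats, and 6.21, 3.93, 13.1 and 37.9 in the ASC-derived CM rats. Slc34a3 and Slc6a19 were high in ASC-derived CM rat 4, where Slc22a7 was lowest, and low in rats 1 and 2 of that group.

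The balance of early and late glucose carrier was also taken within each rat, as the log2 ratio of Slc5a2 to Slc5a1 in TPM, which does not depend on the size of the library. In untreated rats the ratio was 2.97 ± 1.27 (SD, n = 6), from 1.10 to 4.02. It was 1.88 ± 1.07 (n = 6) in i.p. ASC rats, a difference of -1.09 (two-sided exact permutation test, p = 0.145), and 1.33 ± 1.39 (n = 6) in i.v. ASC rats, a difference of -1.64 (exact permutation p = 0.0606). In the ASC-derived CM rats it was 1.36 ± 2.23 (n = 4), a difference of -1.61 (exact permutation p = 0.171). Adjusted over the 3 comparisons, each p was 0.171, and none passed 0.05. The smallest p the design allows was 0.0022 for 6 against 6 rats and 0.0095 for 4 against 6.

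Single rats decided the size of these differences. The 4 ASC-derived CM rats had ratios of -0.53, -0.50, 2.57 and 3.88, so 2 of them lay below and 2 inside the untreated range. Without i.v. ASC rat 2 the i.v. ASC difference was -2.04 (exact permutation p = 0.026, not adjusted). Without i.v. ASC rat 6, untreated rat 2 or untreated rat 3 it was -1.89, -2.02 and -1.91 (exact permutation p = 0.039, 0.0303 and 0.039, not adjusted). Without any other single rat of the 2 groups it lay between -1.66 and -1.33 (exact permutation p = 0.0866 to 0.117, not adjusted). Without ASC-derived CM rat 1 or rat 2, the ASC-derived CM difference was -0.98 and -0.99, and without rat 4 it was -2.45.

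**Figure D4:**
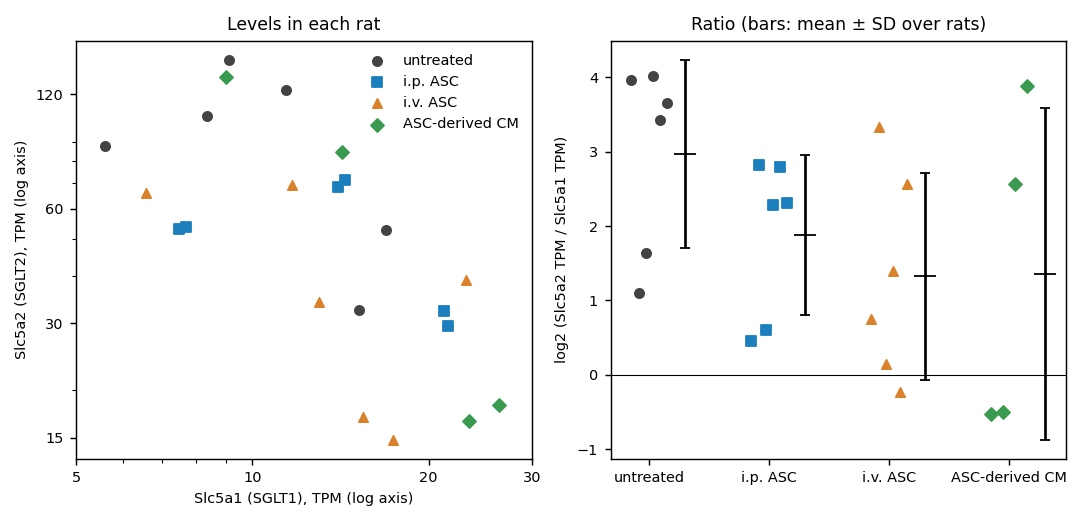
Left, TPM of Slc5a2 against TPM of Slc5a1 in each of 22 rats (both axes log). Right, log2 of their ratio by group, with the mean and SD beside the points; the untreated rats span 1.10 to 4.02, and each treated group overlaps that range.

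No member passed the test in any comparison. By the quasi-likelihood test of edgeR, with p adjusted by Benjamini-Hochberg over 12867 genes, the calls at an adjusted p below 0.05 were 0 of 39 members and 0% of all genes in each of the 4 comparisons. The smallest adjusted p of a member against untreated was 0.771 (i.p. ASC), 0.523 (i.v. ASC) and 0.711 (ASC-derived CM), and that of i.v. ASC against i.p. ASC was 1. DESeq2 also called 0 members, while it called 0, 28, 4 and 24 of 15275 genes in the same order of comparisons. No member had groups that did not overlap, against 0.14%, 0.179%, 1.42% and 0.0544% of all genes in the same order of comparisons. A log2 fold change below is a difference of fitted levels on the count scale, with its standard error (SE).

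For i.p. ASC against untreated, 27 of 39 members had a log2 fold change above 0, against 46.2% of all genes, and the median was 0.45 against -0.01 over all genes. An unadjusted p below 0.05 was found for 3 members, against 3.89% of all genes. They were Slc17a4, a phosphate and anion carrier (log2 fold change -0.40 ± 0.12 SE), Slc16a4, a monocarboxylate carrier (1.28 ± 0.56), and Slc4a4 (-0.61 ± 0.29). Slc17a4 had a lowest, median and highest value of 18, 22 and 26.5 CPM in untreated and 13.3, 16.6 and 21.2 CPM in i.p. ASC rats. Slc16a4 had 12, 26.1 and 47.2 CPM in untreated and 14.4, 46 and 141 CPM in i.p. ASC rats. In both genes the groups overlapped, and Slc16a4 was lowest in untreated rat 1 and highest in i.p. ASC rat 1.

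For i.v. ASC against untreated, 27 of 39 members had a log2 fold change above 0, against 47.5% of all genes, with a median of 0.47 against -0.01. An unadjusted p below 0.05 was found for 6 members, against 8.81% of all genes. Lower were Slc17a4 (-0.40 ± 0.12 SE), Slc4a4 (-0.82 ± 0.29), Slc5a12 (-1.17 ± 0.43), Slc5a2 (-1.07 ± 0.46) and Slc7a8 (-0.47 ± 0.21), and higher was Slc5a8 (1.57 ± 0.68). Slc17a4 had 14.1, 16.3 and 19.7 CPM as lowest, median and highest value in i.v. ASC rats. Slc4a4 had 43.8, 91.6 and 129 CPM in untreated and 30, 47.2 and 79 CPM in i.v. ASC rats. Of the 6 genes, 4 belong to the Slc5a2 set described above. This mix of directions depended on the tool. By DESeq2, 13 members had an unadjusted p below 0.05 (beside 1379 of 15275 genes), and 7 of these 13 were higher.

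For ASC-derived CM against untreated, 30 of 39 members had a log2 fold change above 0, against 49.1% of all genes, with a median of 0.64 against -0.0029. An unadjusted p below 0.05 was found for 7 members, against 6.6% of all genes, and all 7 were higher. These were Slc17a3 (1.08 ± 0.49 SE), Aqp1 (1.0 ± 0.46), Slc17a1 (1.23 ± 0.57), Slc6a18 (1.36 ± 0.64), Slc23a1 (1.63 ± 0.77), Slc22a7 (2.12 ± 1.0) and Slc22a12 (1.38 ± 0.66). Slc17a3 had 34.8, 88.5 and 127 CPM as lowest, median and highest value in untreated rats and 327, 148, 142 and 89.6 CPM in the ASC-derived CM rats. Aqp1 had 442, 569 and 901 CPM in untreated rats and 2176, 1426, 716 and 669 CPM in the ASC-derived CM rats. Without ASC-derived CM rat 1 the log2 fold changes of Slc17a3 and Aqp1 were 0.60 and 0.58, and 0 members had an unadjusted p below 0.05, as was also the case without untreated rat 1, 5 or 6. Without these rats, in turn, 459 of 12940, 527 of 12856, 621 of 12857 and 681 of 12855 genes had such a p.

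The routes differed little in their medians. For i.v. ASC against i.p. ASC, 11 of 39 members had a log2 fold change above 0, against 45.9% of all genes, with a median of -0.06 against -0.01. An unadjusted p below 0.05 was found for 0 members by edgeR, against 2.18% of all genes. By DESeq2 the count was also 0 members, beside 355 of 15275 genes. The smallest unadjusted p values were those of Slc2a2 (-0.21 ± 0.20 SE) and Slc7a8 (-0.21 ± 0.21). Slc2a2 had 99.3, 146 and 171 CPM as lowest, median and highest value in i.p. ASC and 71.7, 121 and 174 CPM in i.v. ASC rats, with 102, 159 and 221 CPM in untreated and 105, 89.2, 113 and 168 CPM in ASC-derived CM rats. The SE of single members reached 0.86, so log2 differences of this size between the routes could have gone unseen.

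By role, the fitted differences from untreated were not uniform in sign. All 3 endocytic receptors and Aqp1 had log2 fold changes above 0 against untreated in all 3 treated groups, with Lrp2 at 0.50 ± 0.35 SE, 0.47 ± 0.35 and 0.69 ± 0.39 for i.p. ASC, i.v. ASC and ASC-derived CM. Of the 8 organic anion and cation carriers, 6, 6 and 8 were above 0, with medians of 0.63, 0.56 and 0.77. Of the 8 amino acid and peptide carriers, 5, 4 and 6 were above 0, with medians of 0.33, 0.22 and 0.39. Of the 3 glucose carriers only Slc5a1 was above 0, at 0.45 ± 0.37, 0.48 ± 0.37 and 0.80 ± 0.40. None of these differences passed the adjusted test, and the comparisons share the untreated rats.

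The monocarboxylate, urate and ascorbate carriers split in the same way, with Slc5a8, Slc16a4, Slc22a12 and Slc23a1 above 0 and Slc5a12 below 0 against untreated in all 3 treated groups. The phosphate group split into Slc34a1, Slc17a1 and Slc17a3 above 0 and Slc34a3 and Slc17a4 below. Slc9a3 was above 0 and Slc4a4 below. Among sulfate and dicarboxylate carriers, Slc13a2, the citrate carrier, had the highest values at 0.80 ± 0.52 SE, 1.0 ± 0.53 and 1.10 ± 0.57, and Slc13a1 lay at -0.05 ± 0.30, 0.00 ± 0.30 and -0.06 ± 0.34. Read by the sets described above, all 22 members of the Slc5a1 set were above 0 against untreated in all 3 treated groups, with medians of 0.84, 0.92 and 1.09. Of the 9 in the Slc5a2 set, 0, 0 and 2 were above 0, with medians of -0.61, -0.66 and -0.44. Members of a set vary together from rat to rat, so these counts do not add up as independent results.

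**Figure D5:**
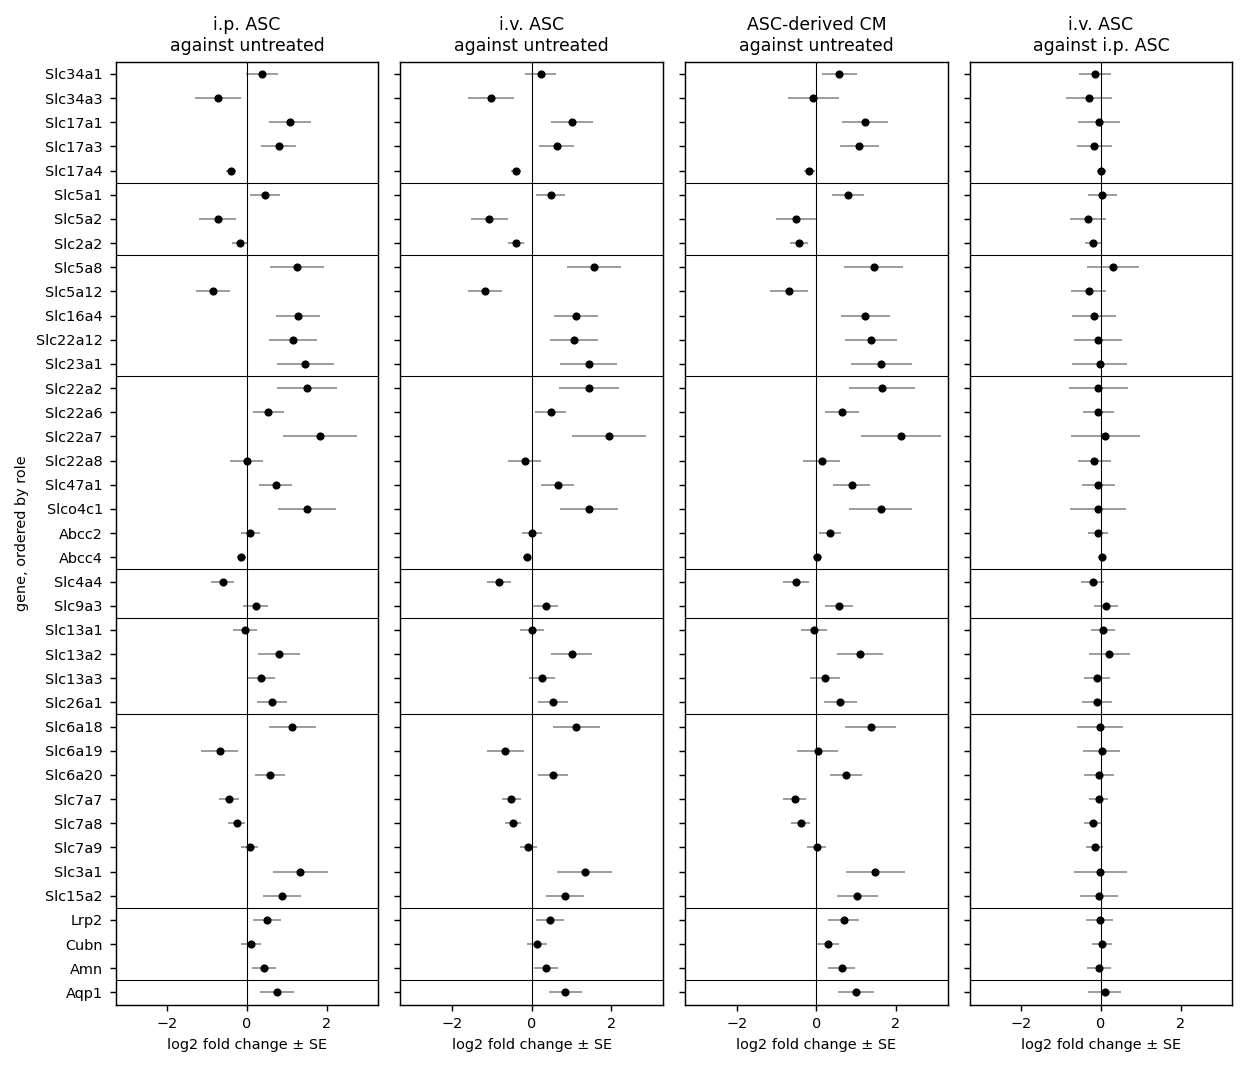
Log2 fold change with its SE for each of the 39 genes, ordered by role, in 4 panels for i.p. ASC, i.v. ASC and ASC-derived CM against untreated and i.v. ASC against i.p. ASC. None passed the adjusted test; in the 3 left panels 27, 27 and 30 genes lie right of 0, and in the right panel 11 do.

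Untreated rat 1 and the first rats of the treated groups weighed on these values. Without untreated rat 1 the median log2 fold change of the members was 0.34, 0.30 and 0.50 for i.p. ASC, i.v. ASC and ASC-derived CM. Without i.p. ASC rat 1, i.v. ASC rat 1 or ASC-derived CM rat 1, in turn, the median of that rat's own comparison was 0.27, 0.20 and 0.37. With 1 surrogate variable in the fit the medians were -0.05, -0.14 and 0.17, so the direction turned in the first 2 comparisons. That variable was estimated from the same expression values. It was highest in i.v. ASC rat 1 (0.40), ASC-derived CM rat 1 (0.39) and i.p. ASC rat 1 (0.35), and lowest in untreated rat 1 (-0.27). These rats also held the ends of the members' mean, so this fit cannot separate the variable from the members' own level. On log2(TPM + 1), where the median of all genes lay at -0.10, -0.12 and -0.07, the members lay 0.37, 0.33 and 0.62 above it.

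Genes outside the list followed the members closely. Over all genes tested, the highest correlations with the mean of the members, centred on the group means over the 22 rats and given with no test, were those of Acsm2 (r = 0.99), Cyp2c23, Fbp1 and Slc27a2 (0.98 each), and Gsta2, Alpl, Enpep, Grhpr, Nherf4 and Glyat (0.97 each). Fbp1 is an enzyme of gluconeogenesis, Slc27a2 a fatty acid carrier, and Alpl and Enpep are brush border enzymes. The most negative values were those of Dbn1 (-0.93), an actin-binding protein, Tmem132a, Clip2 and Syt6 (-0.91 each), Tp53i11 (-0.90), Pik3ip1 (-0.89), and Nradd, Col18a1, Apobec3 and Phlda3 (-0.88 each). Of 16 proximal tubule enzymes and brush border proteins on a list, 14 had r of at least 0.6 with the members' mean. The exceptions were Gatm at 0.50 and Dpep1 at -0.38.

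The partners of the transporters were less uniform. Of 13 listed, 6 had r of at least 0.6 with the members' mean, among them Cltrn (0.93), the scaffolds Pdzk1 (0.95) and Slc9a3r1 (0.87), and Lrpap1, the chaperone of megalin (0.93). Atp1b1, a subunit of the sodium pump, had r = 0.16 and lay between 4383 and 7158 CPM in all rats. Slc3a2 had r = -0.49. None of the 13 passed the adjusted edgeR test in any comparison, and 11, 11 and 7 had a log2 fold change above 0 for i.p. ASC, i.v. ASC and ASC-derived CM against untreated, with medians of 0.14, 0.22 and 0.11.

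Of 8 transcription factors of this epithelium, 5 had r of at least 0.6 with the members' mean, among them Hnf4a (0.93) and Hnf4g (0.91). Hnf4a is a nuclear receptor known to drive proximal tubule genes, and it ranged from 178 to 790 CPM over the 22 rats. Maf had r = -0.11 with the members' mean and 0.90 with the Slc5a2 set. Of the 8 factors, 0 passed the adjusted edgeR test, and 5, 5 and 7 had a log2 fold change above 0 for i.p. ASC, i.v. ASC and ASC-derived CM against untreated, with medians of 0.06, 0.09 and 0.16.

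Because Hnf4a varied with the members, their promoters were searched for an HNF4 element, one of several motif searches of which the others are not reported here, in RefSeq sequence of the assembly GRCr8 from 250 bases before to 50 bases after the transcription start. A promoter was matched for 37 of 39 members, all but Slc22a6 and Slc47a1. The letters CAAAGTCCA, read on both strands, were found in 1 of 37 members (2.70%) and in 0.375% of all 27457 promoters. The member was Slc3a1, the most abundant of the 39 genes and one of the Slc5a1 set. Its match is shown with 24 bases on either side, in the direction of the gene, with the 9 matching bases in capitals.

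Slc3a1, chr6:15394806-15394862, minus strand: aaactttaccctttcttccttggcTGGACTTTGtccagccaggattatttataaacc

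The element lies on the strand opposite to the gene, so the capitals are its reverse complement, and it begins 89 bases before the transcription start. The match is a run of letters in a reference window, and binding was not measured here.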

How the data were processed

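Left kidney RNA of 22 rats was sequenced on the BGISEQ-500 platform, and the authors deposited an estimated count for each rat Entrez gene, which they did not normalize. They also deposited TPM values, scaled by the authors for transcript length and total. The submitters' processing notes name Trim Galore 0.6.4, kallisto 0.4.6 and the build rn6, without their roles. How reads shared by paralogs were split is not given in the sources used here. Groups came from the treatment in the labels.

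Counts were rounded to whole numbers, since 14.1% were not whole, and tested with edgeR 4.0.16 in R 4.3.3 (filterByExpr, TMM, quasi-likelihood F test, 4 groups in 1 fit, Benjamini-Hochberg adjustment over 12867 genes, threshold 0.05). CPM values are scaled by TMM, except summed marker levels, which are plain CPM. Log2 CPM used a prior count of 2. Symbols came from the RefSeq table of GRCr8, used for names only, and 17179 of 17334 genes matched. Trpm6 was not matched, Keg1 was matched as Glyatl2 and Slc9a3r1 as Nherf1. Ratios were tested by exact permutation over rats with scipy 1.17.1. The fits were tested on simulated data. Rats of a group differed beyond sampling noise, with chi-square per gene of 7.52 to 147.

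The members, roles, pairs and marker lists were chosen with earlier results of these data known. Per-rat values were given for the 2 members with the smallest unadjusted p in each comparison, the members of the pairs, the 3 highest and 3 lowest in mean TPM and the 3 with the largest spread. Other genes named were the 10 most and the 10 least correlated with the members, partners and transcription factors, and those the text says were chosen after their values were seen. The alternatives comprised RLE size factors, DESeq2 1.42.0, no filter, at least 10 counts in every rat, only the 2 groups in the fit, limma-trend (limma 3.58.1) on log2(TPM + 1) and log2(TPM + 0.1), 1 surrogate variable (sva 3.50.0), the animal number as a covariate (added after seeing the data) and leaving out each rat in turn. How far the number of rats, the spread between them and depth each set the precision of these values was not tested. Some genes of the lists are not reported here by name.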

Additional observations from a re-analysis of the deposited data

Results flagged for a closer look

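Of 156 sets of values (39 genes in each of 4 groups), 4 held a rat whose log2 CPM lay apart from the rest of its group by Dixon's test, and chance alone gives about 1 in 20. Slc22a6 was low in untreated rat 1, at 6.12 against 7.52 to 8.32 in the other untreated rats. Slc13a2 was low in the same rat, at 3.16 against 4.53 to 5.14. Abcc4 was low in i.p. ASC rat 2, at 5.66 against 6.12 to 6.28. Slc6a19 was high in i.p. ASC rat 6, at 4.09 against 2.84 to 3.16 in the rest of that group.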

How the results depend on the processing

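No member was called under any of the 9 alternatives or with any single rat left out, and the smallest adjusted p of a member was 0.237. Few genes of any kind were called. Against untreated and against i.p. ASC, 11 and 13 genes were called without i.v. ASC rat 2, and 14 and 13 without i.v. ASC rat 6. With 1 surrogate variable 4 were called for the routes, and with only the 2 groups 1 for ASC-derived CM. The DESeq2 calls are given below, and the other settings called 0. With at least 10 counts in every rat, 37 of the 39 members were tested. The log2 fold changes of the 2 members with the smallest p in each comparison kept their direction and their side of the threshold in all 164 values compared. Members with an unadjusted p below 0.05 numbered 3, 6, 7 and 0 (i.p. ASC, i.v. ASC and ASC-derived CM against untreated, i.v. ASC against i.p. ASC). In the same order of the first 3, they numbered 12, 13 and 13 by DESeq2 (beside 723, 1379 and 1042 of 15275 genes), 14, 14 and 19 with only the 2 groups in the fit (beside 778 of 12531, 1478 of 12548 and 1328 of 12657 genes), 1, 3 and 0 with 1 surrogate variable (and 1 for the routes; beside 330, 667, 904 and 428 of 12867 genes), and 1, 2 and 0 with the animal number as a covariate (beside 221, 388 and 645 genes). Without the filter i.p. ASC had 5 (beside 609 of 15275 genes), and on either TPM scale i.p. ASC had 1 and ASC-derived CM 3 (beside 490 and 722 genes on log2(TPM + 1), 472 and 717 on log2(TPM + 0.1)). Leaving out 1 rat gave 1 (without untreated rat 1, among others) to 17 (without i.p. ASC rat 5), 3 (without i.v. ASC rat 3) to 19 (without i.v. ASC rat 2), and 0 (without untreated rat 1, among others) to 20 (without ASC-derived CM rat 4). For i.p. ASC these counts stood beside 311 of 12856 and 940 of 12858 genes. For i.v. ASC they stood beside 640 of 12853 and 1291 of 12863 genes. For ASC-derived CM they stood beside 527 of 12856 and 1404 of 12936 genes, so the count over all genes moved too. The directions of members with such a p changed too. Against untreated, in the same order, 1, 1 and 7 were higher in the main fit and 9, 7 and 13 by DESeq2. With only the 2 groups in the fit, 9, 9 and 19 were higher. On log2(TPM + 1), 0 of 1, 0 of 7 and 1 of 3 were higher. The causes were not tested.

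Median log2 fold changes of the members were 0.27 to 0.60, 0.20 to 0.58 and 0.37 to 0.75 with 1 rat left out, and -0.32 to 0.19 for the routes, where the sign depended on the rats held. With 1 surrogate variable the i.v. ASC median was -0.14, and with the animal number as a covariate the medians were 0.21, 0.085 and 0.43. The ratio differences ranged from -1.46 to -0.80, -2.04 to -1.33 and -2.45 to -0.98. Of the 10 pairs, the call of Slc5a2 with Pdzk1ip1 changed, at r = -0.55 without 2 rats. Over all genes edgeR called 0 in each comparison (500, 1133, 849 and 281 at an unadjusted p below 0.05), and DESeq2 called 0, 28, 4 and 24. No paired analysis was possible because no animal belongs to more than 1 group and the replicate numbers follow accession order.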

Other observations

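Tubular injury genes varied unevenly with the transporters. Of 13 listed, 6 had r of at most -0.6 with the members' mean over the 22 rats, centred on the group means, and 1 had at least 0.6. Vcam1 was at -0.76 and Vim, an intermediate filament gene, at -0.74, while Havcr1, the injury molecule KIM-1, was at 0.16, and Sox9 was at 0.66. Their summed level ran from 9049 CPM in an ASC-derived CM rat to 19873 CPM in untreated rat 1, the rat with the lowest members' mean. Spp1, 1 of the 13, alone ran from 6809 to 13855 CPM over the rats, so it weighed heavily on the sum. Its r with the members' mean was -0.35. None of the 13 passed the adjusted edgeR test in any comparison.

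Genes that followed the Slc5a2 set, chosen after their values were seen, were Fam151a (r = 0.96), Epb41l3 (0.95), Xdh, the xanthine oxidase gene (0.93), and Gpx3, the plasma glutathione peroxidase (0.91). Gpx3 ranged from 1634 to 7375 CPM over the 22 rats. The most negative were Kcnk1 (-0.92), a potassium channel gene, and Tle5 (-0.90). Among the proximal tubule enzymes, Gatm and Dpep1 had r = 0.72 and 0.78 with the Slc5a2 set, against 0.19 and -0.61 with the Slc5a1 set. These are descriptions over rats with no test.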
